A study of Danio rerio with 14 samples.

Results

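Tissue factor is the membrane receptor that starts the extrinsic pathway of blood coagulation. It binds factor VII and its active form on the cell surface, and the complex activates factor X, from which thrombin and then fibrin follow. Its fold is that of the class II cytokine receptors, with a pair of fibronectin type III domains outside the cell. In mammals it is found mainly in cells around vessels, in epithelia and in astrocytes, and it is induced in monocytes and endothelium by inflammatory signals, with AP-1, NF-κB and Egr-1 acting on the human promoter. Teleost fish carry it as a pair of paralogs, *f3a* and *f3b*.

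Both genes were described here, 2 of the 19859 genes in a table of RNAseq values from zebrafish retina. They were found by the Ensembl identifiers paired with their symbols, ENSDARG00000099124 for *f3a* and ENSDARG00000005673 for *f3b*. The samples were dissected retinas, RPE (retinal pigment epithelium) included, from 7 chmru848 and 7 wild-type AB (wt) zebrafish at 5 dpf (days post fertilisation). The labels name no treatment, and whether a sample held 1 or both retinas of a fish is not given in the sources used here. Each sample is called a retina in what follows. chmru848 zebrafish carry a mutation of *chm*, which encodes rab escort protein 1 and is expressed in all tissues. The mutant embryos degenerate systemically as well as in the eye and die at about 5 dpf, so that the retina is not the only affected organ. The study asked which pathways are disturbed in the mutant retina.

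The deposited values are on a variance-stabilized log2 scale, called the VST scale here and the deposited log2 scale on the axes of the plots. Its lowest value, 4.35, corresponds to 0 reads, and it compresses differences between weakly expressed genes. The transformation was also undone, and the results are called normalized counts. From the spacing of the lowest normalized counts, depth was roughly estimated at 14.3 to 29.2 M reads on genes in chmru848 retinas and 18.0 to 26.3 M in wt. The chmru848 retinas had 369 to 1983 genes at the lowest value and the wt retinas 317 to 628, with chmru848 replicates 1, 2 and 4 the highest. The mutated gene (ENSDARG00000003845) had 216 to 492 normalized counts in chmru848 and 264 to 432 in wt retinas, which overlap, so its RNA level did not check the genotype labels. wt replicate 6 stood apart from the other wt retinas. Its summed normalized counts of 6 photoreceptor genes were 431645, against 1594724 to 3216340 in the other 6 wt retinas and 96828 to 301111 in chmru848. It also had 325 normalized counts of *il1b*, for the cytokine interleukin-1β, against 6.17 to 20.1 in the other wt retinas.

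*f3a* and *f3b* were chosen from lists of genes that the study had called higher in chmru848 retinas from these same samples. The difference between genotypes is therefore what selected them, and it is given as a description with no test.

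*f3a* was low in wt retinas. From replicate 1 to replicate 7 in label order, the wt retinas had 33.4, 32.5, 45.0, 9.62, 23.1, 24.9 and 5.75 normalized counts. The chmru848 retinas had 126, 90.5, 232, 373, 201, 122 and 227. Every chmru848 retina lay above every wt retina, with a gap from 45.0 in wt replicate 3 to 90.5 in chmru848 replicate 2. Across all genes tested, 7.57% had every chmru848 retina above every wt retina and 7.98% had every one below. The mean of *f3a* was 24.9 ± 13.8 normalized counts (SD, n = 7) in wt and 196 ± 95.8 in chmru848 retinas, a ratio of 7.87. On the VST scale the difference was 1.97, where the SD between retinas was 0.44 in wt and 0.58 in chmru848.

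*f3b* had the larger counts of the pair in every retina. In the same order the wt retinas had 66.0, 200, 118, 75.7, 59.9, 291 and 67.4 normalized counts. The chmru848 retinas had 748, 506, 861, 561, 786, 255 and 1089. Here the groups overlapped by 1 retina on each side: wt replicate 6, the highest wt retina at 291, lay above chmru848 replicate 6, the lowest mutant at 255. The other 6 chmru848 retinas lay above every wt retina, and all 7 lay above the wt median of 75.7. The mean was 125 ± 88.2 normalized counts (SD, n = 7) in wt and 686 ± 271 in chmru848 retinas, a ratio of 5.47. The ratio of the medians was 9.87, since wt replicates 2 and 6 raise the wt mean. Without wt replicate 6, the retina that made the overlap, the highest wt retina was 200. How many of all genes separate without it was not counted, so this is not read as a separation. The ratio of the *f3b* means without wt replicate 6 was 7.01. For *f3a* the ratio without that retina was 7.87. On the VST scale *f3b* differed by 2.21, with an SD of 0.70 in wt and 0.63 in chmru848.

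**Figure D1:**
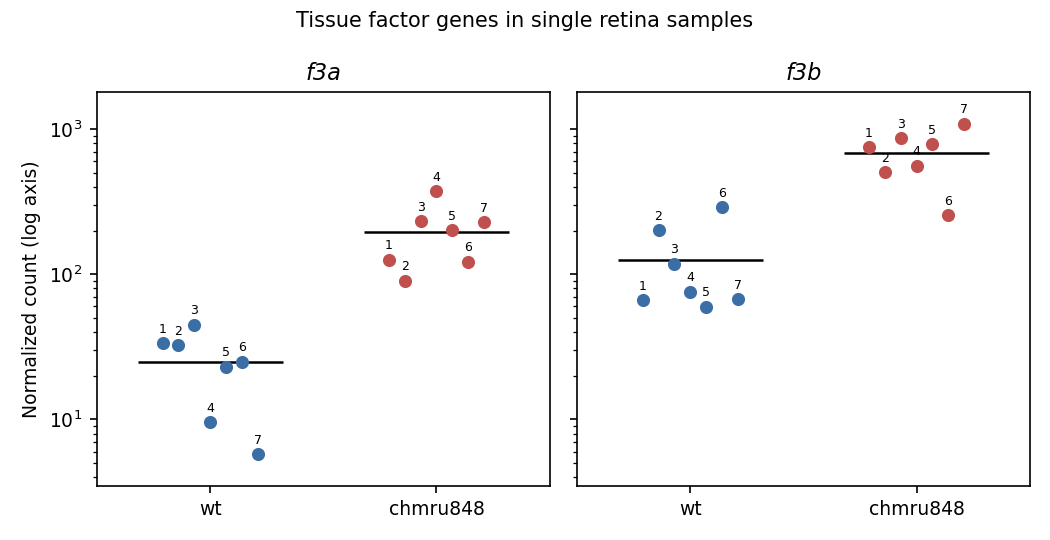
Normalized counts of *f3a* and *f3b* (log axis) in 7 wt and 7 chmru848 retinas. Each point is 1 sample with its replicate number, and the line is the arithmetic mean of the group. The *f3a* groups are separate, and for *f3b* wt replicate 6 (291) lies above chmru848 replicate 6 (255).

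By the size of the rise on the VST scale, *f3b* was in place 320 and *f3a* in place 472 of the 19751 genes tested. The order of the paralogs depends on the scale. As a log2 ratio of the genotype means in normalized counts, each mean with 0.5 added, *f3a* had the larger value at 2.95 and *f3b* had 2.45. *f3a* lies lower on the compressed part of the deposited scale.

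Counting error weighs more on *f3a* than on *f3b*. The wt values of *f3a* rest on 6.98 to 59.0 estimated reads per retina, and its chmru848 values on 68.4 to 345. For *f3b* the estimates were 57.2 to 350 reads in wt and 203 to 1654 in chmru848. The SD between wt retinas was 55.3% of the mean for *f3a* and 70.3% for *f3b*. In chmru848 retinas it was 48.9% and 39.5%. The larger relative spread in wt *f3b* was thus found at the greater number of reads, and it comes with wt replicates 2 and 6.

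*f3a* made up a variable part of the pair. Its share of the summed normalized counts of both genes was 7.86% to 33.6% in wt retinas (median 13.9%) and 14.4% to 39.9% in chmru848 retinas (median 20.4%). The means were 18.6 ± 10.8% (SD, n = 7) and 23.0 ± 9.58%. This difference of 4.38 percentage points is smaller than the SD within either genotype. The highest share was in chmru848 replicate 4, which had the highest *f3a* of all retinas (373) but only the fifth highest *f3b* of its group (561). At the other end, wt replicate 7 had the lowest *f3a* (5.75) with an *f3b* level of 67.4, and wt replicate 6 had a share of 7.89% because its *f3b* was high. Gene lengths of the transcripts were not at hand, so which paralog has more transcripts cannot be read from the counts. Reads that align to both paralogs would be divided between them by RSEM.

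Whether the paralogs rise and fall together among fish of 1 genotype was not used to choose them, and was tested within each genotype on the VST scale. In wt retinas Pearson's r was 0.37 and Spearman's rho 0.25 (n = 7; exact two-sided permutation p = 0.412 and 0.595). In chmru848 retinas r was 0.41 and rho 0.57 (n = 7; exact permutation p = 0.363 and 0.2). Adjusted over the 2 relations, the p-values were 0.412 for both Pearson coefficients, and 0.595 and 0.4 for the Spearman coefficients (exact permutation). Co-variation was thus not detectable with 7 retinas in either genotype. With any 1 retina left out r stayed positive and no p was under 0.05 (exact permutation). Without the pair of retinas farthest from the *f3a* median, r was −0.06 in wt (5 retinas, without replicates 4 and 7; exact permutation p = 0.867). In chmru848 it was 0.74 (5 retinas, without replicates 2 and 4; unadjusted exact permutation p = 0.0167).

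**Figure D2:**
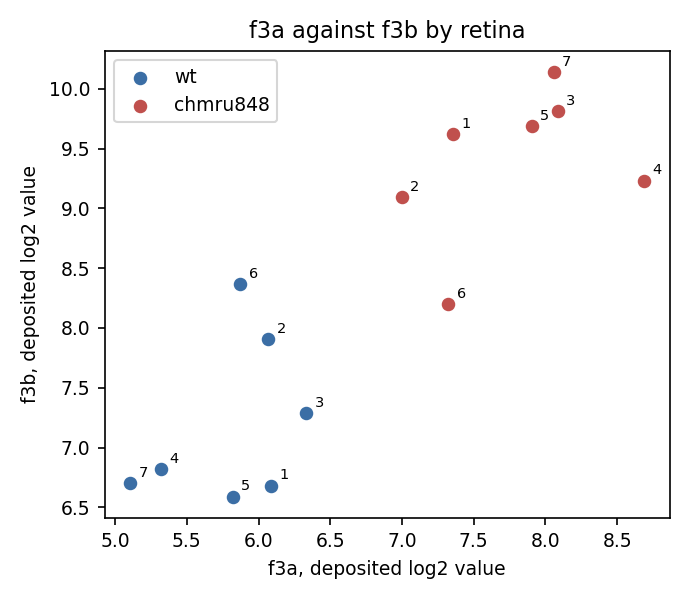
VST values of *f3a* (horizontal) and *f3b* (vertical), 1 point per sample with its replicate number. The genotypes form separate clusters, and within them r was 0.37 in wt and 0.41 in chmru848. chmru848 replicate 4 and wt replicate 6 lie off the diagonal in opposite directions.

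The genes whose variation between retinas was most like that of each paralog were ranked by Pearson's r over the deviations of the 14 retinas from their genotype means. This is a description over 14 points that share library and depth, and the first places among 19750 genes are high by selection. For *f3a* the first 5 genes with a symbol were *nopchap1* (0.92), *pnp4b* (0.88), *TMEM175* (0.85), *VPS26B* (0.84) and *TBC1D22B* (0.83). For *f3b* they were *BAG3* (0.84), a co-chaperone of the heat shock protein Hsp70, *CDK10* (0.83), *SLC2A10* (0.82), *trmt10c* (0.81) and si:dkey-195o9.2 (0.80). The lists share no gene. *pnp4b* and si:dkey-195o9.2 are near the limit of detection, each under 3 estimated reads in 3 chmru848 and 2 wt retinas. The highest wt retina was replicate 6 for *BAG3*, *SLC2A10* and si:dkey-195o9.2, and replicate 2 for *CDK10* and *trmt10c*. *f3b* came in place 2754 in the order for *f3a*, and *f3a* in place 1866 in the order for *f3b*, both with r = 0.39. Among these 10 genes, 3 were called higher in chmru848 retinas by limma (*nopchap1*, *BAG3* and *trmt10c*), where 19.9% of all genes tested were, so the count is near the background. *BAG3* (ENSDARG00000039486) rose from 89.8 ± 29.6 to 201 ± 59.3 normalized counts (SD, n = 7), with a difference of 0.90 on the VST scale (SE 0.21, adjusted p = 0.0024, limma).

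Tissue factor works with plasma and membrane proteins of coagulation, so the genes of haemostasis (clotting) and fibrinolysis (clot removal) were compared between genotypes. All genes were tested together with limma, and a call is an adjusted p under 0.05 over all 19751 genes tested. At this threshold 43.7% of all genes tested were called, 19.9% as higher and 23.7% as lower in chmru848 retinas. Of 32 symbols used, 31 had an identifier, and 15 identifiers were in the deposited table. Many carry the symbol of the human ortholog in the name table and are printed in capitals here. Of the 15 genes, 4 were higher, 3 were lower and 8 were not called, which is 46.7% called and near the 43.7% of all genes. Most of the list is weakly expressed, and only 3 of its genes had a mean 2 or more log2 units over the lowest value. These were *F10*, *TFPI* and *SERPINE2*, so the 4 genes called higher were not tested under this filter. Of the 3, only *F10* was called, as lower (limma). The median difference of the list was 0.23 on the VST scale, and that of all genes tested was −0.06. In bulk retina, a change in the number of cells that express a gene cannot be told apart from a change in its RNA per cell.

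The genes called higher include those for urokinase, the protease that activates plasminogen. It has a pair of genes in the table, and both rose. *plaua* (ENSDARG00000075265) averaged 178 ± 152 normalized counts (SD, n = 7) in chmru848 retinas and 11.1 ± 6.82 in wt. Its mutant values fell in 2 ranges, 24.9 to 46.6 in replicates 1, 2 and 7 and 151 to 382 in the other 4, and the lowest mutant (24.9) lay just above the highest wt retina (24.6). Its difference was 1.98 (SE 0.42, adjusted p = 0.000965, limma). *PLAU* (ENSDARG00000039145) went from 8.22 ± 5.67 to 68.5 ± 23.9, with mutant values of 40.6 to 109 and wt values of 2.41 to 19.3. Its difference was 1.48 (SE 0.20, adjusted p = 1.43e-05, limma). Neither gene is in the lists of the study.

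Thrombin, which the cascade forms before fibrin, signals to cells through protease-activated receptors. *F2R* is the symbol of a human thrombin receptor of this kind. Several zebrafish identifiers carry it in the name table, and only ENSDARG00000060012 was in the deposited table. That gene had 38.5, 25.3, 101, 37.7, 115, 41.5 and 145 normalized counts in chmru848 replicates 1 to 7, and 0.904 to 6.30 in the wt retinas. In 4 wt retinas it was under 3 estimated reads. Every chmru848 retina lay above every wt retina, as for 7.57% of all genes tested. The difference was 1.72 (SE 0.25, adjusted p = 3e-05, limma). The pair of genes listed as *F2RL1*, whose human ortholog is the receptor cleaved by the complex of tissue factor and factor VIIa, were not called. ENSDARG00000077540 had 11.4 ± 9.41 normalized counts in chmru848 and 3.10 ± 5.48 in wt retinas (adjusted p = 0.147, limma). It passed under quantile normalization (adjusted p = 0.0376, limma), in a range of 0.0376 to 0.257 over the alternatives. ENSDARG00000068856, also *F2RL1*, had 6.18 ± 7.27 in chmru848 and 9.45 ± 4.85 in wt (SD, n = 7; adjusted p = 0.214, limma). Both are near the limit of detection, with 0 counts in 2 and 3 chmru848 retinas.

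*HPN* (ENSDARG00000027609), which encodes the membrane protease hepsin, was the other gene called higher. It had 3.39 to 29.5 normalized counts in chmru848 and 0 to 5.26 in wt retinas, 5 of which were under 3 estimated reads. The difference was 0.82 (SE 0.19, adjusted p = 0.0023, limma), with all 7 chmru848 retinas above the wt median. It is the one gene of the 15 in the lists of the study, which were chosen on these retinas.

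**Figure D3:**
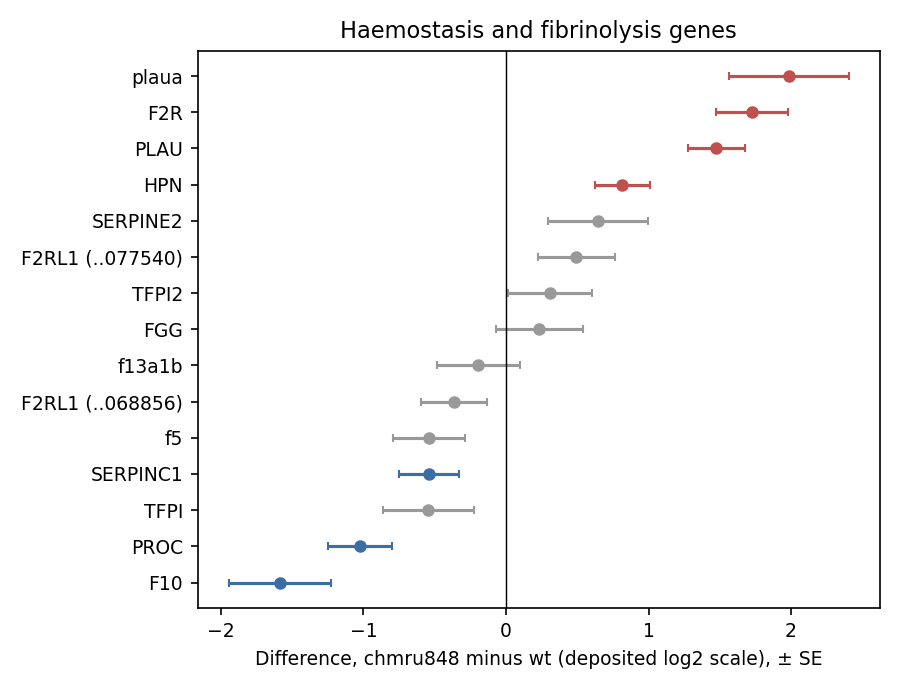
Difference between chmru848 and wt retinas on the VST scale for 15 haemostasis and fibrinolysis genes, with the SE from limma as bars (n = 7 per genotype). Red genes were called higher (4), blue genes lower (3) and grey genes were not called (8). *plaua* (1.98) and *F10* (−1.59) mark the ends.

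The genes called lower encode plasma factors, but other genes of plasma factors in the list were not called. Among these, *FGG* differed by 0.23 and *f13a1b* by −0.19 on the VST scale. *F10* (ENSDARG00000088581), for factor X, the substrate of the tissue factor complex, had 38.4, 51.9, 38.4, 0, 41.7, 10.2 and 1.97 normalized counts in chmru848 replicates 1 to 7. The wt retinas had 37.9, 259, 109, 125, 192, 91.3 and 81.9. All 7 mutants lay below the wt median of 109, but wt replicate 1 overlapped with them. The difference was −1.59 (SE 0.36, adjusted p = 0.00166, limma). *PROC* (ENSDARG00000093079), for protein C, an anticoagulant protease, was at 0 in 5 chmru848 retinas, at 1.41 in replicate 5 and at 18.4 in replicate 4, against 7.30 to 29.4 in wt retinas. Its difference was −1.02 (SE 0.22, adjusted p = 0.00129, limma).

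*SERPINC1* (ENSDARG00000042684), for antithrombin, which inhibits thrombin and factor Xa, lay close to the threshold. It had 17.4 ± 8.92 normalized counts (SD, n = 7) in chmru848 and 37.7 ± 15.8 in wt retinas, which differ by −0.54 (SE 0.21, adjusted p = 0.0449, limma). Its call was lost with median centring, with quantile normalization, with the replicate number as a block (adjusted p = 0.0579, limma), without chmru848 replicates 1, 2 and 4 together (0.0821) and when any 1 of 9 retinas was left out, with adjusted p-values from 0.0165 to 0.0942 over the alternatives. *TFPI* (ENSDARG00000034718), for tissue factor pathway inhibitor, the direct inhibitor of the tissue factor complex, had 51.1 to 265 normalized counts in chmru848 and 72.0 to 449 in wt retinas. It was not called with all retinas (difference −0.54, SE 0.32, adjusted p = 0.175, limma). Its lowest wt value, 72.0, was in replicate 6, and without that retina the difference was −0.77 (adjusted p = 0.0319, limma). Over all the alternatives the adjusted p-values of *TFPI* ranged from 0.0319 to 0.48 (limma). *f5* (ENSDARG00000055705), for the cofactor of factor Xa, had 0 to 8.94 normalized counts in chmru848 and 0 to 40.3 in wt retinas and was not called (adjusted p = 0.0896, limma). Without wt replicate 2, which was at 0, it passed the threshold with an adjusted p of 0.0217 (limma), in a range of 0.0217 to 0.311 over the alternatives.

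**Figure D4:**
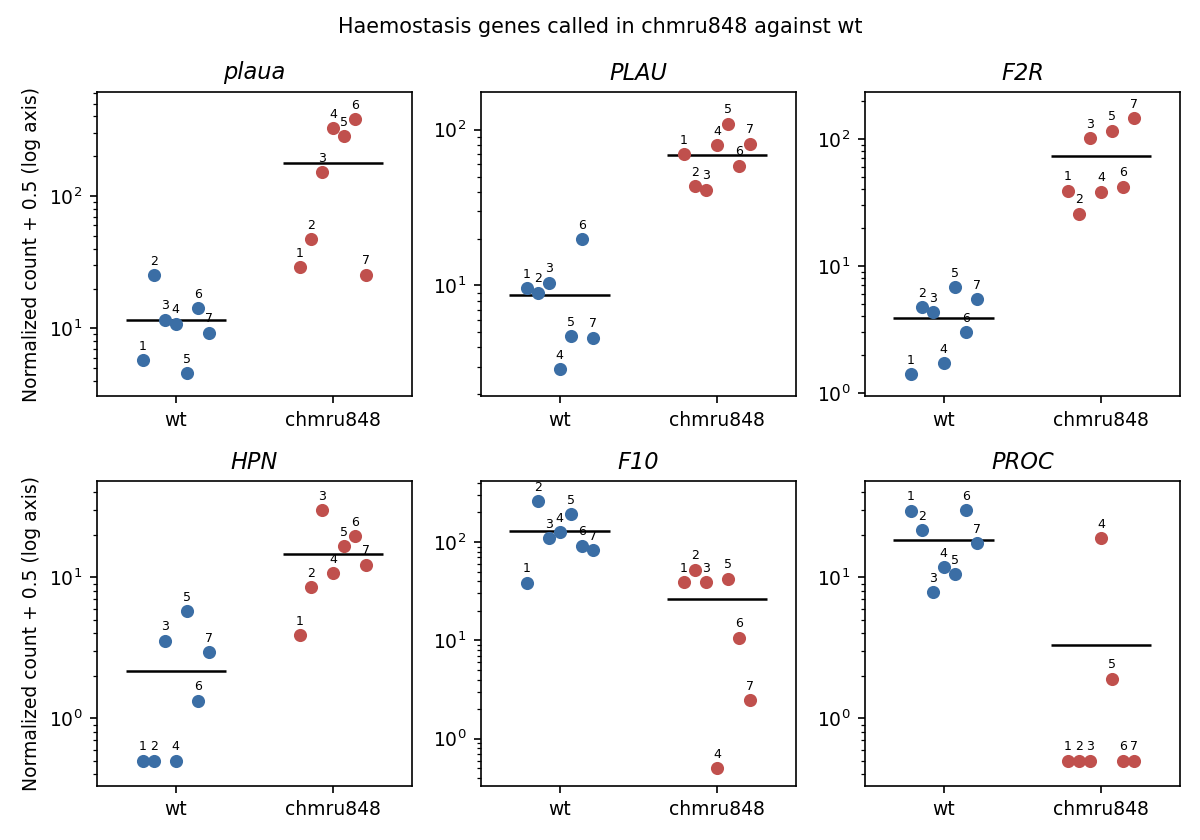
Normalized counts plus 0.5 (log axis) of 6 called haemostasis genes in 7 wt and 7 chmru848 retinas, 1 point per sample with its replicate number. Lines are arithmetic means. *plaua* (lowest mutant 24.9, highest wt 24.6), *PLAU* and *F2R* separate the genotypes. *HPN* is higher in chmru848 retinas with some overlap, and *F10* and *PROC* are lower in chmru848 retinas with some overlap. Across all genes tested, 7.57% had every chmru848 retina above every wt retina. *SERPINC1*, which was also called, is not shown.

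Since tissue factor has the fold of a class II cytokine receptor, the other receptor chains were set beside it. Of 6 class II chains in the table, none was called, by limma, with adjusted p-values from 0.122 to 0.692, 0 of 6 at an unadjusted p under 0.05, and a median difference of 0.31 on the VST scale (range −0.16 to 0.41). The 6 are *crfb1* and *crfb2*, chains of the zebrafish interferon receptors, *crfb4*, *ifngr1*, *il10ra* and *il10rb*. Of these, *il10rb* (ENSDARG00000078042) passed without chmru848 replicate 6 (adjusted p = 0.0121, limma), and *ifngr1* (ENSDARG00000074771) passed without chmru848 replicates 1, 2 and 4 (adjusted p = 0.0309). Over all the alternatives the adjusted p-values reached 0.241 for *il10rb* and 0.87 for *ifngr1* (limma). Of 11 class I chains and partners, 10 were called higher, with a median of 1.80 over the 11 (range 0.86 to 4.02). Of all genes tested, 43.7% were called, 19.9% as higher in chmru848 retinas. The class I genes are all in the lists of the study and the class II genes are not, so that their counts do not compare the classes. The largest rise among them was in *crlf1a* (ENSDARG00000024365), for a secreted partner of class I cytokines, at 2696 ± 639 against 130 ± 36.7 normalized counts (SD, n = 7; difference 4.02, SE 0.19, adjusted p = 4.54e-11, limma).

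**Figure D5:**
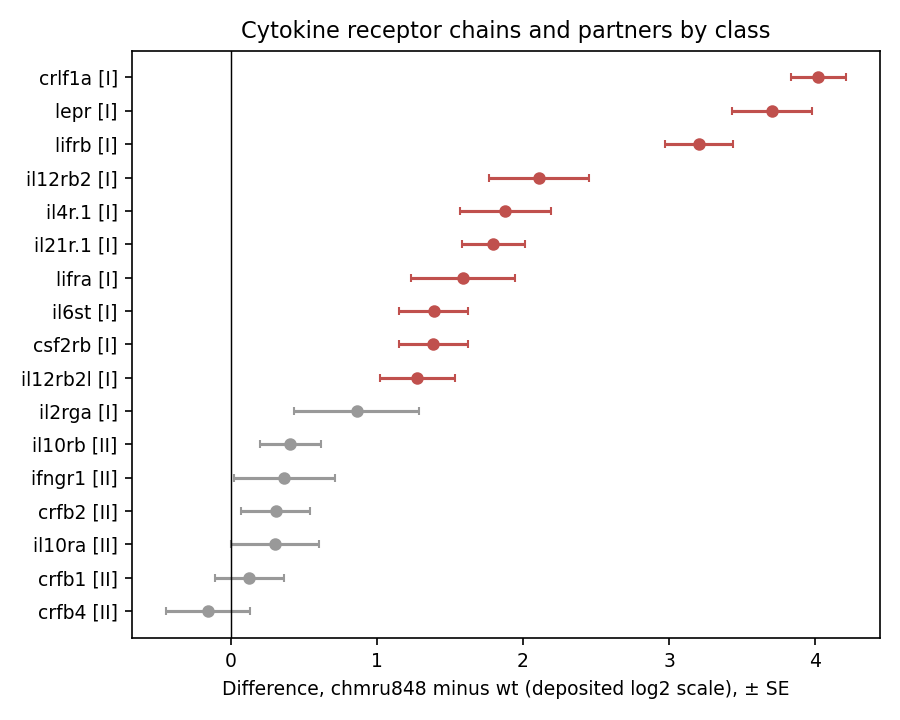
Difference between chmru848 and wt retinas on the VST scale for 17 cytokine receptor chains and partners, class in square brackets, with the SE from limma as bars (n = 7 per genotype). Red genes were called higher and grey genes were not called. The 6 class II genes lie between −0.16 and 0.41, and the class I genes, which come from the lists of the study, between 0.86 and 4.02.

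Of 20 genes of the NF-κB and AP-1 pathways in the table, 17 were called higher, none lower and 3 were not called (limma; 18 higher and 0 lower at an unadjusted p under 0.05), with a median difference of 1.16. Over all genes tested, 19.9% were called higher and 23.7% lower. The 12 of them that the lists of the study hold account for 11 of these calls. Those lists were chosen on these same retinas, so their calls are no independent result. Among the 8 others, 6 were called higher. *RIPK2* (ENSDARG00000104290), one of the 3 that were not called (adjusted p = 0.062, limma), passed under median centring, quantile normalization or without any 1 of chmru848 replicates 1, 6 and 7. *JUN* (ENSDARG00000043531), a subunit of AP-1, had 76256 ± 23076 normalized counts (SD, n = 7) in chmru848 and 1507 ± 508 in wt retinas, which differ by 5.62 (SE 0.25, adjusted p = 2.18e-11, limma). *FOS* (ENSDARG00000031683), its partner, had 4400 ± 1885 and 837 ± 249, a difference of 2.28 (SE 0.26, adjusted p = 2.28e-06, limma). *RELA* (ENSDARG00000098696), a subunit of NF-κB, had 856 ± 330 and 162 ± 40.2, a difference of 2.09 (SE 0.24, adjusted p = 2.42e-06, limma). *RELA* is in the lists of the study, unlike *JUN* and *FOS*, so its rise is part of what selected it. *egr1* (ENSDARG00000037421), which encodes the factor named Egr-1 above, was not called. It had 3482 ± 1045 normalized counts in chmru848 and 3362 ± 2487 in wt retinas (SD, n = 7; adjusted p = 0.512, limma). All 7 chmru848 retinas (2602 to 5610) lay above the wt median of 2432, but within the wt range of 1109 to 8213. *nfkbiab* (ENSDARG00000007693) was not called either, with a difference of −0.34 (SE 0.26, adjusted p = 0.301, limma). Among 31 genes of the haemostasis, receptor and NF-κB and AP-1 lists that were called higher, wt replicate 6 was the highest wt retina for 13. For 9 of the 31, chmru848 replicate 4 was the highest mutant. How often each retina is the highest over all genes tested was not counted. wt replicate 6 was the highest wt retina for *f3b* too, but for *f3a* it was in the middle of its group.

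Markers of endothelium, leukocytes, Müller glia, photoreceptors and RPE were set beside the pair. Of 4 endothelial genes, *sele* (ENSDARG00000009123), for E-selectin, which appears on activated endothelium, was higher at 121 ± 77.2 against 5.48 ± 4.41 normalized counts (SD, n = 7; adjusted p = 2.91e-05, limma). *kdrl*, for a receptor of vascular endothelial growth factor, was lower at 82.1 ± 65.5 against 163 ± 47.6 (SD, n = 7; adjusted p = 0.0235, limma). *cdh5* and *pecam1a* were not called, so that 2 of 4 were called where 43.7% of all genes tested were. The summed normalized counts of these 4 genes were 438 to 1105 in chmru848 and 404 to 868 in wt retinas. Of 8 leukocyte genes, *RUNX1* and *ptprc* were called higher and the others were not, a share near the 19.9% of all genes tested. Without *apoeb*, which glia also express, their sum was 54.2 to 405 in chmru848 and 133 to 314 in wt retinas. Of 6 genes of Müller glia, *GFAP* (448 ± 185 against 44.3 ± 33.5 normalized counts) and *nes* were higher. Of the pair listed as *VIM*, ENSDARG00000044501 was lower, at 7.51 ± 9.47 against 21.8 ± 11.3 (SD, n = 7) and at 0 in 3 chmru848 retinas. The other *VIM* and both genes listed as *GLUL* were not called, so that 50% were called where 43.7% of all genes tested were. The sum of the 6, made up mainly of the *GLUL* genes, was 21018 to 71677 in chmru848 and 26232 to 57475 in wt retinas. All 6 photoreceptor genes were lower, where 23.7% of all genes tested were. Their sums were 96828 to 301111 in chmru848 and 431645 to 3216340 in wt retinas, of which the lowest is replicate 6 and the next 1594724. Of 5 RPE genes, *DCT* and *pmela* were lower (40%) and the others were not called, with sums of 546 to 13854 in chmru848 and 4748 to 12886 in wt retinas. The part of these markers in the values of *f3a* and *f3b* was not tested.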

How the data were processed

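Libraries were built with a SMART-Seq v4 kit. The authors trimmed reads with Trim Galore 0.6.7, aligned them to GRCz11 with STAR 2.7.10a, counted genes with RSEM 1.3.3 and normalised the counts with DESeq2 1.38.3. The deposited values are on a log2 scale, after a variance-stabilizing transformation by the authors whose settings are not given in the sources used here. The transformation was undone with its lowest value as the only parameter. The step between low normalized counts (grid 0.5 to 2) was taken as 1 read. Only 52.5% to 65.1% of the values up to 5 steps were whole multiples of it (tolerance 5% of a step), so no count test was run.

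limma 3.58.1 (R 4.3.3), with its trend option and p-values adjusted by Benjamini-Hochberg, was fitted to 19751 genes, and 108 genes that exceeded the lowest value in fewer than 7 of 14 retinas were not tested. Correlations over 7 retinas had exact permutation tests over all 5040 pairings. With retinas left out, all pairings of the retinas kept were used. These are fewer, so that such p-values can take only coarse steps. Scripts were tested on simulated data. The limma p-values set the difference of genotype means against the spread between retinas of 1 label. The permutation p-values concern the pairing of *f3a* with *f3b* values within a genotype.

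Of the 19859 genes, 18974 had a symbol in the name table. The genes named are *f3a*, *f3b*, the members of lists of haemostasis, cytokine receptor, NF-κB and AP-1 and cell marker genes, and the 5 genes most like each paralog. Members and lists were chosen with earlier results of these data known. One planned member of the haemostasis list is not reported here. Symbols were matched to the name table directly or through the human symbol. A planned comparison of the levels of the paralogs per length was left out because no transcript lengths were at hand. Alternatives varied the filter, variance trend, scaling, scale, replicate number as a block, and each retina left out. Leaving out chmru848 replicates 1, 2 and 4, and a block for the *f3a* and *f3b* differences, were added after seeing the data. No sequences were printed, since no sequence table was at hand.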

Additional observations from a re-analysis of the deposited data

Results flagged for a closer look

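Of 20 groups of 7 retinas looked at (*f3a*, *f3b*, the *f3a* share and the 7 called haemostasis genes in each genotype), 1 held a retina far from the others. *PROC* in chmru848 replicate 4 had a deposited log2 value of 5.67, while the other chmru848 retinas had no more than 4.73. The gap to the nearest retina was 0.71 of the whole range of the group. *PROC* was at 0 in 5 of these 7 retinas, so the range is set by tied values, and neither the critical value of Dixon's test nor its chance rate of about 1 in 20 groups applies. The same retina had the highest *f3a* of all 14.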

How the results depend on the processing

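The direction of *f3a* and *f3b* was the same under every alternative run. The *f3a* difference of 1.97 became 2.95 as the log2 ratio of mean normalized counts and 3.07 as the difference of mean log2(normalized count + 0.5), both scales that do not compress low values. With 1 retina left out it ranged from 1.82 to 2.10, and that of *f3b* from 2.08 to 2.41. Without chmru848 replicates 1, 2 and 4 the differences were 2.04 and 2.27. With 1 retina left out, the difference in the *f3a* share ranged from 1.56 to 6.90 points. The correlation of *f3a* with *f3b* ranged from 0.23 to 0.52 in wt and from 0.24 to 0.69 in chmru848 retinas with 1 left out. Without the 2 retinas farthest from the *f3a* median it was −0.0633 in wt and 0.74 in chmru848. Restricting the test to genes with a mean 2 or more log2 units over the lowest value left 3 haemostasis genes to test. Of these, 0 were called higher and 1 lower (limma), and the 4 genes called higher without this filter did not enter. With 1 retina left out, the list had 4 higher and 2 to 4 lower genes. The FOSB call was lost without the 3 chmru848 retinas (adjusted p = 0.0573, limma).

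Whether the replicate numbers pair fish is not given in the sources used here. Deviations of same-numbered retinas had correlations of −0.12 to 0.10, and 0 of 7 chmru848 retinas correlated best with their own number. A block for the replicate number cannot change a difference of genotype means here, because every number is shared by a chmru848 and a wt retina. The differences of 1.97 for *f3a* and 2.21 for *f3b* were therefore not tested by the block. It can change the SE of a difference, and so the calls. With the block 4036 genes were higher and 4791 lower over all genes, against 3940 and 4687 without it. Median centring moved the split of calls to 4394 higher and 4280 lower. The order of the paralogs per length was not run. Depth limits the genes with retinas under 3 estimated reads, such as *F2R* (4 wt), *HPN* (5 wt) and *PROC* (6 chmru848).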
